A study of Mus musculus with 24 samples.

Results

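The phagocyte NADPH oxidase is the enzyme complex with which neutrophils, monocytes and macrophages reduce oxygen to superoxide during the respiratory burst. Its catalytic core sits in the membrane as a heterodimer of gp91phox, encoded by Cybb, and p22phox, encoded by Cyba. In resting cells the organiser p47phox (Ncf1) and p40phox (Ncf4) wait in the cytosol. On activation p47phox is phosphorylated and binds p22phox, p40phox binds a membrane lipid, and the small GTPase Rac2, in its GTP-bound form, joins the complex so that electrons can pass from NADPH to oxygen. In bone marrow the genes are switched on as granulocytes and monocytes mature, and loss of a subunit is known as a cause of chronic granulomatous disease.

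The levels of 5 subunit genes, Cybb, Cyba, Ncf1, Ncf4 and Rac2, are described here across genotype and flight. The subunits were chosen by name, through their Ensembl gene IDs, and are 5 of the 54752 genes in the table. All 5 had a TPM, the length-scaled share of a transcript in its library, above 1 in some library and were among the 12373 genes tested. RNA came from cryopreserved bone marrow cells of 24 male C57BL/6 mice, with 1 library per mouse and 6 mice per group. GC-WT mice were wild-type ground controls, and GC-KO mice were ground controls that lacked the transcription factor Nrf2 (gene symbol Nfe2l2), a regulator of antioxidant genes. FL-WT and FL-KO mice, of the same respective genotypes, were 8 weeks old when they were transported, 3 weeks before launch, stayed 31 days on the International Space Station and were killed 2 days after landing. The age of the ground mice is not given in the sources used here. Nrf2 was absent from the whole body, so that marrow cells and their surroundings were both deficient, and the marrow cells were not sorted. Ground mice were kept in Japan while flight mice were prepared for launch and recovered in the United States, and site and flight cannot be told apart. The knockout was visible in the libraries: Nfe2l2 was at 17.1 to 26.1 TPM in GC-WT mice and 3.6 to 7.18 TPM in GC-KO mice, and at 11.4 to 27.3 TPM in FL-WT mice and 2.22 to 4.31 TPM in FL-KO mice. All 12 neutrophil markers were above 0 in every library, with a summed level of 31438 to 68045 TPM per library, and erythroid markers were the most abundant, with 86936 to 244600 TPM. Read counts were not used here, since the table holds TPM only, so the depth of each library and the counting error of each value are unknown.

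The 5 genes differ in place and in structure (GRCm38). Cybb (ENSMUSG00000015340.10) lies on the minus strand of chromosome X at 9435252 to 9487771, and its longest annotated transcript has 4752 nt with a GC content of 42.4%. Cyba (ENSMUSG00000006519.11), on the minus strand of chromosome 8 at 122424776 to 122432930, has the shortest and most GC-rich one, with 744 nt and 59.3%. Ncf1 (ENSMUSG00000015950.13) is on the minus strand of chromosome 5 at 134220053 to 134229625, with 2882 nt and 53.4%. Ncf4 (ENSMUSG00000071715.12) and Rac2 (ENSMUSG00000033220.7) share chromosome 15. Ncf4 is on the plus strand at 78244801 to 78262580 with 1464 nt and 55.7%, and Rac2 is on the minus strand at 78559167 to 78572783 with 3038 nt and 52.8%. Over the tested genes the medians were 2990.5 nt and 49.1%.

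Promoter sequences of RefSeq (GRCm38.p6) were matched for 3 of the 5 subunits, and none was used for Ncf4 and Rac2. The 250 bases before the start of each are shown because Cybb and Ncf1 varied together while Cyba did not follow them, on the scaled values described further on. They are chrX:9469325-9469574 for Cybb, chr8:122432941-122433190 for Cyba and chr5:134229626-134229875 for Ncf1, each written 5′ to 3′ along the minus strand, and the Cybb start used by RefSeq lies inside the longer gene span given above. Capitals mark matches, on either strand, to the interferon response motif, which is GAAA, 2 bases of any kind and GAAA again.
Cybb promoter: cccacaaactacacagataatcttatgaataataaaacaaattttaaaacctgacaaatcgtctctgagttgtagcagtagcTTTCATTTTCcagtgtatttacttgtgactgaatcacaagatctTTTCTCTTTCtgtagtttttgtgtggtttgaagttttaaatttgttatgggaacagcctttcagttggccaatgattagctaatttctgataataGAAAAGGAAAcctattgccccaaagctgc
Cyba promoter: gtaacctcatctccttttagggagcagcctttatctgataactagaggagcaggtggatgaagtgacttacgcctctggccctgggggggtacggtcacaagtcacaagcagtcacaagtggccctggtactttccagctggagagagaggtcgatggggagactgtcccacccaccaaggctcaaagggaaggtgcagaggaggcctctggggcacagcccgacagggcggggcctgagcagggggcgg
Ncf1 promoter: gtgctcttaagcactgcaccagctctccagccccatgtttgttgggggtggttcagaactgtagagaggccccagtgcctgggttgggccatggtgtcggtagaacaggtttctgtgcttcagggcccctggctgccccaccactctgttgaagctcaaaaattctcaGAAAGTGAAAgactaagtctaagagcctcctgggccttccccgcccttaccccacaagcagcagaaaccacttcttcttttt
Cybb held 3 such matches, at -168 to -159, -124 to -115 and -29 to -20 from the start, Ncf1 held 1, at -82 to -73, and Cyba held 0. Of 32851 promoters with 250 bases before and 50 after the start, 3.44% held at least 1. The letters GAGGAA, bound by PU.1 and other ETS factors, were found once, on the opposite strand of Cybb at bases 9 to 14 after the start, and occur in 28.3% of promoters. The antioxidant response letters TGACNNNGC (12.4% of promoters), to which Nrf2 binds, and the C/EBP letters TTGCNNAA (10.8%) had no match in the 3 windows. No 2 of these motifs overlapped. A match or its absence describes these windows only, and binding was not measured. The contrast was picked after the values were seen, and no link between these motifs and the RNA levels was tested. Rac2, which varied with Cybb and Ncf1, had no promoter to set beside them.

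In WT marrow on the ground, Cyba was the most abundant subunit at 233 ± 41.1 TPM (SD, n = 6), followed by Ncf1 at 129 ± 13.5 TPM, Rac2 at 126 ± 19.2 TPM, Cybb at 78.5 ± 9.86 TPM and Ncf4 at 51.8 ± 4.88 TPM. TPM values are scaled by transcript length, so these levels can be set beside each other. The RNA of p22phox was thus above that of gp91phox, its partner in the dimer, in every group.

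Cybb encodes gp91phox, the subunit that carries the electrons across the membrane. Its lowest, median and highest values were 63.9, 78.4 and 90.7 TPM in GC-WT mice and 46.1, 77.5 and 118 TPM in FL-WT mice. In GC-KO mice they were 32.0, 41.6 and 67.7 TPM, and in FL-KO mice 26.6, 34.8 and 43.2 TPM. Every FL-KO mouse lay below every FL-WT mouse, whereas on the ground GC-KO mouse 11 reached into the WT range. In the order GC-WT, FL-WT, GC-KO, FL-KO, only the step between FL-WT and GC-KO, of 30.2 TPM, exceeded the larger SD of the neighbours.

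Cyba encodes p22phox, which stabilises gp91phox and other NOX enzymes and is made in many cell types. It ran from 169 over a median of 242 to 279 TPM in GC-WT mice and from 192 over 266 to 347 TPM in FL-WT mice. In GC-KO mice it ran from 160 over 186 to 233 TPM, and in FL-KO mice from 153 over 210 to 219 TPM. All 4 groups overlapped, and no neighbours in their order (FL-WT, GC-WT, FL-KO, GC-KO) differed beyond the larger SD.

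Ncf1 encodes p47phox, the organiser that carries the cytosolic subunits to the membrane. Its values were 108, 130 and 146 TPM (lowest, median, highest) in GC-WT mice and 78.5, 124 and 199 TPM in FL-WT mice. In GC-KO mice they were 51.0, 62.1 and 100.2 TPM, and in FL-KO mice 41.6, 52.6 and 70.6 TPM. It was the 1 subunit of which all GC-KO mice lay below all GC-WT mice, and all FL-KO mice lay below all FL-WT mice too. The step from GC-WT to GC-KO was 57.9 TPM, beyond the larger SD, while FL-WT and GC-WT, and GC-KO and FL-KO, did not differ beyond theirs.

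Ncf4 encodes p40phox, which binds the lipid of the phagosome membrane. It was found at 46.3, 51.6 and 58.5 TPM in GC-WT mice and at 37.9, 50.5 and 73.9 TPM in FL-WT mice. In GC-KO mice the values were 31.7, 36.1 and 52.2 TPM and in FL-KO mice 25.7, 35.1 and 37.2 TPM. The highest FL-KO mouse, at 37.2 TPM, stayed just under the lowest FL-WT mouse, at 37.9 TPM, and the ground groups overlapped. Only the 12.3 TPM between GC-WT and GC-KO exceeded the larger SD of neighbouring groups.

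Rac2 encodes the GTPase that switches the assembled oxidase on and also drives actin movement in blood cells. Its values were 95.7, 129 and 145 TPM in GC-WT mice and 72.2, 111 and 185 TPM in FL-WT mice. They were 43.1, 51.7 and 100.2 TPM in GC-KO mice and 34.2, 39.1 and 52.7 TPM in FL-KO mice. All FL-KO mice lay below all FL-WT mice, and on the ground GC-KO mouse 12 lay above GC-WT mouse 10, the lowest of its group. From FL-WT to GC-KO the mean differed by 53.2 TPM, the only step in its order beyond the larger SD.

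**Figure D1:**
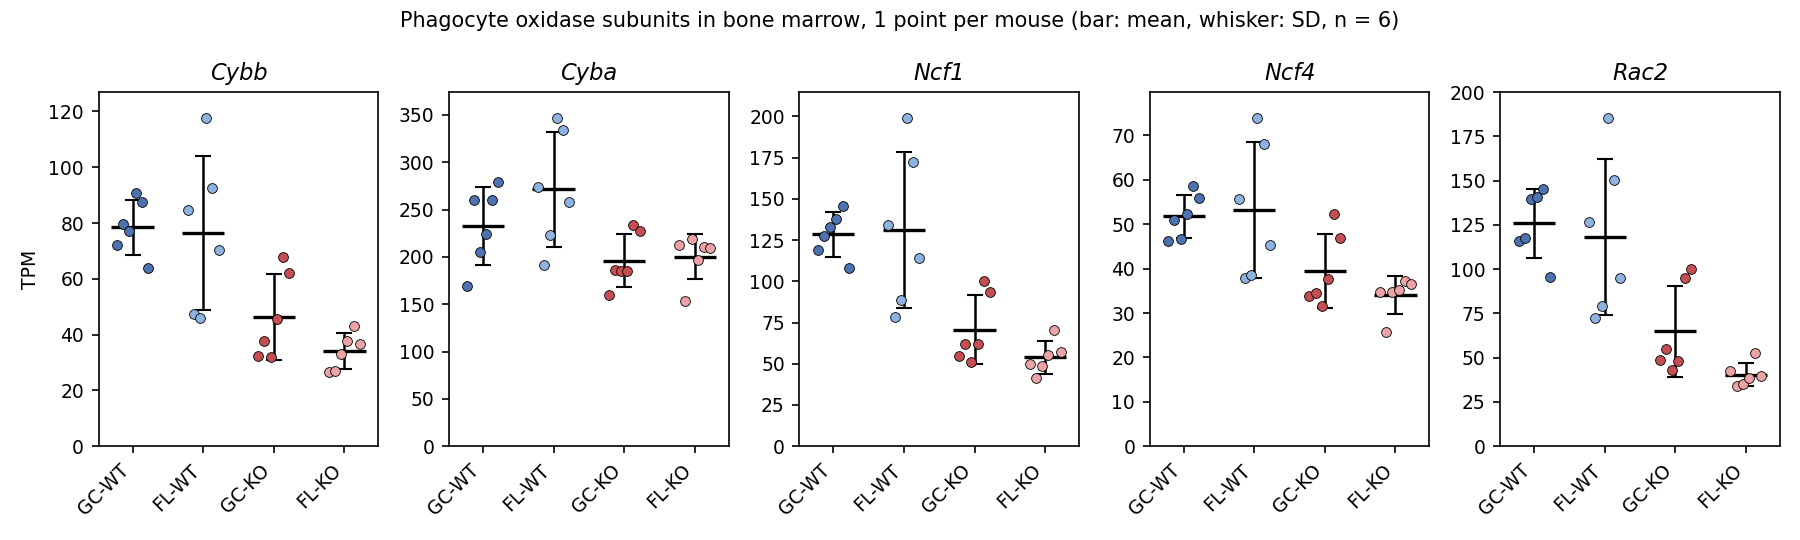
TPM of each subunit (vertical axis) in every mouse, by group, with the mean as a bar and the SD as a whisker (n = 6). In FL-KO mice Cybb, Ncf1, Ncf4 and Rac2 sat below all FL-WT mice, while Cyba overlapped between all 4 groups.

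Within groups the same mice were high or low for several subunits. GC-KO mice 11 and 12 held the highest values of all 5 subunits in their group, with 67.7 and 62.1 TPM for Cybb against 32.0 to 45.7 TPM in the other 4. Their summed promyelocyte markers were 729 and 845 TPM, against 409 to 524 TPM in the other 4 GC-KO mice, and their summed monocyte and macrophage markers were 527 and 517 TPM, against 318 to 406 TPM. This was not limited to phagocyte genes. Their T and NK marker sums were 59.4 and 57.4 TPM, against 35.0 to 44.8 TPM, and Rac1 was at 32.9 and 31.3 TPM, against 18.6 to 21.8 TPM. Erythroid markers did not follow, with the lowest sum of the group, 165850 TPM, in GC-KO mouse 12. FL-WT mice 07 and 08 likewise had the highest and FL-WT mice 05 and 06 the lowest values of all 5 subunits in their group. The part of cell makeup in these differences was not tested.

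The comparison of FL-KO with FL-WT mice asks what loss of Nrf2 does to the oxidase genes in mice that flew. All 5 subunits were lower in FL-KO mice at an adjusted p under 0.1, and Rac2, Ncf1 and Cybb also passed the fold change of 2 that, with that p, defines a called gene (a DEG). Rac2 had a log2 fold change of -1.45 ± 0.21 (SE), 2.74-fold lower (limma, adjusted p = 6e-06). Ncf1 followed with -1.21 ± 0.19, 2.31-fold lower (limma, adjusted p = 1.6e-05), and Cybb with -1.09 ± 0.20, 2.12-fold lower (limma, adjusted p = 0.000108). Ncf4, at -0.59 ± 0.15 (limma, adjusted p = 0.00233), and Cyba, at -0.41 ± 0.14 (limma, adjusted p = 0.021), did not reach that fold. Fold changes are on the log2(TPM + 1) scale. Of all tested genes, 8.36% were called lower in this comparison, 47.2% were lower at an adjusted p under 0.1 with any fold, and 20.6% had all 6 FL-KO mice below all 6 FL-WT mice. Among the subunits these counts were 3, 5 and 4 of 5, so that the count at any fold, against 47.2% of genes, says little about them. The share of tested genes with a lower log2 fold change was 2.08% for Rac2, 4.56% for Ncf1, 6.61% for Cybb, 23.2% for Ncf4 and 35.2% for Cyba. The exact two-sided permutation test of rank sums gave p = 0.00216, the smallest possible with 6 mice against 6, for all but Cyba, which had p = 0.0411. The call of Cybb was lost without FL-WT mouse 07 (log2 fold change -0.95), which left 2 called subunits. In such bulk RNA, fewer phagocytes and less oxidase RNA per phagocyte cannot be told apart. The paper also sorted thawed marrow cells of these mice into types by flow cytometry. It reports a strong rise of M1 macrophages, a class set by surface markers, with Nrf2 deficiency, and little change of granulocytes after flight. Those frequencies were not set against the RNA here.

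The same contrast of genotype on the ground, GC-KO vs. GC-WT, gave smaller values in the same order. Rac2 was the only called subunit, with a log2 fold change of -1.01 ± 0.21 (SE; limma, adjusted p = 0.000853). Ncf1, at -0.90 ± 0.19 (limma, adjusted p = 0.000962), and Cybb, at -0.80 ± 0.20 (limma, adjusted p = 0.0032), were lower without reaching the fold of 2. Ncf4 had a log2 fold change of -0.40 ± 0.15 (limma, adjusted p = 0.0383), and Cyba one of -0.24 ± 0.14 (limma, adjusted p = 0.2). Thus 1 subunit was called against 3.04% of tested genes called lower, 4 were lower at an adjusted p under 0.1 against 42.9%, and 1, Ncf1, had separate groups against 9.15%. The percentiles were 2.94% for Rac2, 5.20% for Ncf1, 7.78% for Cybb, 30.8% for Ncf4 and 47.8% for Cyba, which lay in the middle of all genes. Exact permutation tests gave p = 0.00216 for Ncf1, p = 0.00433 for Cybb and for Rac2, p = 0.0411 for Ncf4 and p = 0.18 for Cyba. The call of Rac2 lay close to the fold threshold. It was lost, with 0 subunits called, without GC-WT mouse 06, 07 or 08 or without GC-KO mouse 01, 02, 04 or 09, and without GC-KO mouse 11 Ncf1 was called as well (log2 fold change -1.01), making 2.

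Flight was compared with ground within each genotype. In WT mice none of the 5 subunits was called or lower at an adjusted p under 0.1, where 0.938% and 39% of tested genes were, and none had separate groups, against 4.19%. The log2 fold changes in FL-WT vs. GC-WT were 0.21 ± 0.14 for Cyba (SE; limma, adjusted p = 0.264), -0.00 for Ncf4, -0.04 for Ncf1, -0.11 for Cybb and -0.16 ± 0.21 for Rac2 (limma, adjusted p = 0.577). Unadjusted limma p-values were also above 0.05 for all 5, and the exact permutation tests gave p of 0.485 to 0.937. The SDs in FL-WT mice were larger than in GC-WT mice for every subunit, for example 44.2 against 19.2 TPM for Rac2. In Nrf2-KO mice again 0 were called lower, against 2.13% of genes, and Rac2 alone was lower at an adjusted p under 0.1, against 53.1%. Its log2 fold change in FL-KO vs. GC-KO was -0.60 ± 0.21 (limma, adjusted p = 0.0281; exact permutation p = 0.0152), with 5 of 6 FL-KO mice below every GC-KO mouse. No subunit had separate groups, against 18.4% of genes. Cybb had -0.39 (limma, adjusted p = 0.118), Ncf1 -0.36 (limma, adjusted p = 0.129), and both passed an adjusted p of 0.1 when only these groups were fitted (limma, adjusted p = 0.0991 and 0.0973). Ncf4 had -0.19 and Cyba 0.03.

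Whether flight moved the subunits differently in the 2 genotypes was tested as an interaction. No subunit was called, against 0.0162% of tested genes called lower. The estimates ran from -0.18 for Cyba to -0.44 for Rac2, each with a limma adjusted p of 1. The larger genotype difference in flight than on the ground is therefore not shown to be a difference between the conditions. The genotype comparison in flight and the flight comparison in Nrf2-KO mice share the FL-KO mice, so their values are not independent of each other.

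Most genes had lower TPM in FL and in KO mice, so scale matters for these values. For flight against ground, the 5 subunits had a median log2 fold change of -0.04 in WT mice, where the median over the tested genes was -0.24, and of -0.36 in Nrf2-KO mice, where it was -0.29. For KO against WT, their medians were -0.80 on the ground and -1.09 in flight, beside -0.22 and -0.25. After median-of-ratios scaling, which brings the medians of all genes to between -0.0012 and 0.0254, the genotype differences of Rac2, Ncf1 and Cybb kept their direction. In FL-KO vs. FL-WT they were -1.06 for Rac2 (limma, adjusted p = 2.89e-06), -0.81 for Ncf1 (limma, adjusted p = 1.46e-06) and -0.69 for Cybb (limma, adjusted p = 3.21e-05), and only Rac2 still passed the fold of 2, on a scale where 3.43% of genes were called lower. On the ground they were -0.67, -0.56 and -0.47, and none was called, against 0.566% of genes. Ncf4 had -0.20 in flight and -0.07 on the ground, and Cyba -0.01 in flight and, with the direction turned, 0.10 on the ground. Flight against ground in WT mice turned positive for Cybb (0.27; limma, adjusted p = 0.0845), Ncf1 (0.34; limma, adjusted p = 0.0186), Ncf4 (0.38; limma, adjusted p = 0.00417) and Rac2 (0.23; limma, adjusted p = 0.257), while Cyba went from 0.21 to 0.59 (limma, adjusted p = 0.000257). On that scale 4 of the 5 subunits were thus higher at an adjusted p under 0.1 in FL-WT mice, where none passed with TPM as deposited. The share of all tested genes that did so was not counted, so this count alone says little about the subunits. In Nrf2-KO mice they became 0.05 for Cybb, 0.09 for Ncf1, 0.25 for Ncf4 (limma, adjusted p = 0.0415) and 0.48 for Cyba (limma, adjusted p = 0.00132), with -0.16 for Rac2. None reached the fold of 2. The direction of flight thus depends on the scale for Cybb, Ncf1 and Ncf4, and for Rac2 in WT mice. Cyba was higher in FL-WT than in GC-WT mice under every scale tried (0.19 to 0.59), past an adjusted p of 0.1 in 3 of the 4 other scales, and Rac2 was lower in FL-KO than in GC-KO mice under every scale (-0.60 to -0.16) but not past that p after median-of-ratios scaling, quantile normalization or removal of trends. When trends in GC content and transcript length were taken out of every library instead, FL-KO vs. FL-WT gave -0.92 for Cybb, -0.89 for Rac2, -0.63 for Ncf1, -0.17 for Ncf4 and -0.06 for Cyba, with none called against 1.12% of genes called lower on that scale.

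**Figure D2:**
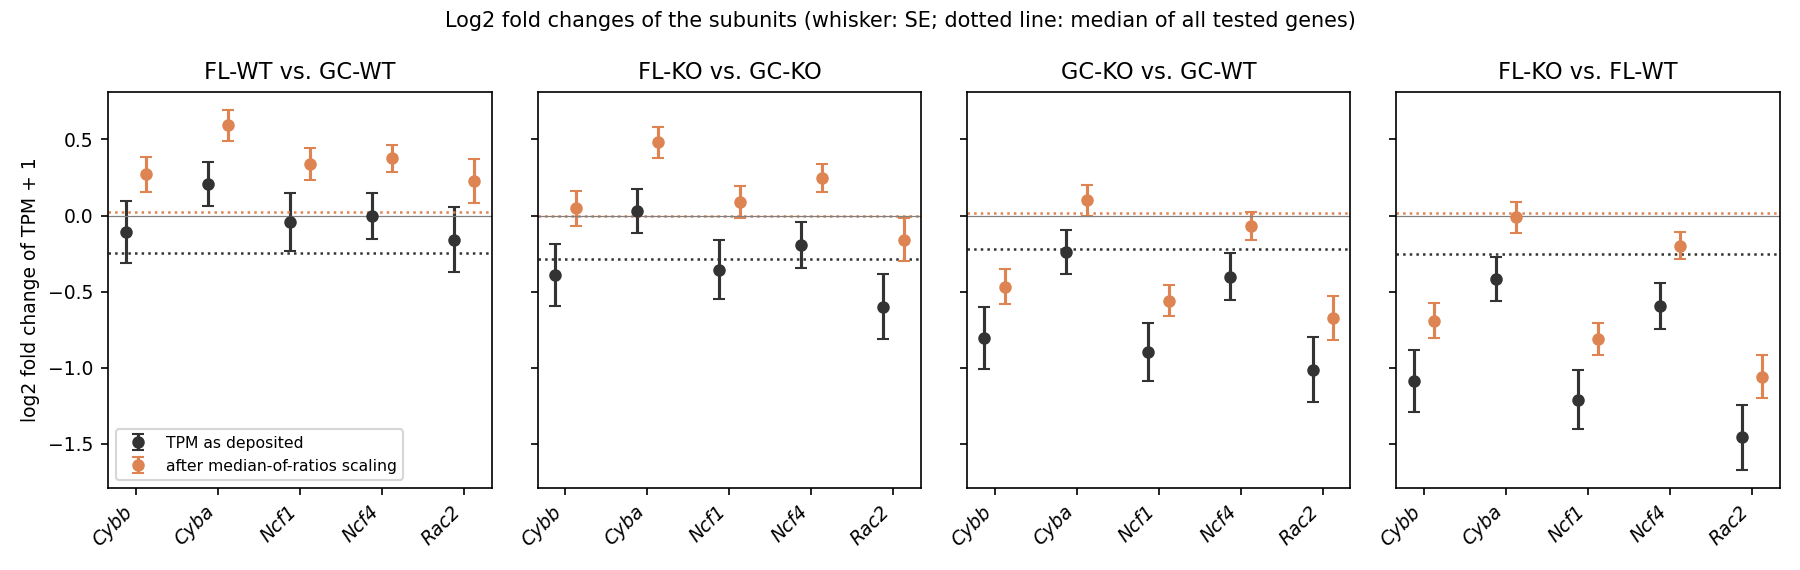
Log2 fold changes of the 5 subunits (vertical axis, log2 of TPM + 1) with their SE in the 4 comparisons, from TPM as deposited and after median-of-ratios scaling, with the median of all tested genes as a dotted line for each. In both genotype comparisons Rac2, Ncf1 and Cybb lie below Ncf4 and Cyba on either scale, and the flight comparison in WT mice lies above 0 for all 5 once scaled.

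Ratios of subunits within a library do not depend on a factor per library such as median-of-ratios scaling, although the removal of GC content and length trends, which acts gene by gene, would move them. The ratio of Cybb to Cyba, the partners of the membrane dimer, was 0.346 ± 0.0722 (SD, n = 6) in GC-WT mice, 0.275 ± 0.0466 in FL-WT mice, 0.231 ± 0.0459 in GC-KO mice and 0.170 ± 0.0290 in FL-KO mice. The highest FL-KO mouse, at 0.2054, was just under the lowest FL-WT mouse, at 0.2060. Among the cytosolic subunits, the ratio of Ncf1 to Ncf4 was 2.50 ± 0.307 and 2.42 ± 0.216 in GC-WT and FL-WT mice but 1.77 ± 0.165 and 1.58 ± 0.177 in GC-KO and FL-KO mice. FL-KO mice reached at most 1.90 and FL-WT mice were at 2.07 or above, while on the ground the GC-KO maximum of 1.998 passed the GC-WT minimum of 1.93. Rac2 to Cyba gave 0.558, 0.424, 0.323 and 0.203 in the order GC-WT, FL-WT, GC-KO, FL-KO, with a highest value of 0.251 in FL-KO mice and a lowest of 0.354 in FL-WT mice. Ncf4 to Cyba moved less, with 0.226, 0.194, 0.2002 and 0.170. For these 3 ratios of Cybb, Ncf1 and Rac2 the FL-KO and FL-WT mice did not overlap, for Cybb to Cyba only barely. The share of all gene pairs that separate these groups was not counted, so this alone says little. On the ground the genotypes overlapped. For Cybb to Cyba, GC-KO mice reached 0.290 and GC-WT mice began at 0.229. For Rac2 to Cyba these values were 0.441 and 0.343. Between Rac2 and Rac1, its ubiquitous relative, the ratio was 3.31 and 3.53 in GC-WT and FL-WT mice and 2.66 and 2.26 in GC-KO and FL-KO mice, with the reservation that reads from their similar coding sequences may be shared out by estimate. These ratios were looked at after the fold changes were known and carry no test.

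**Figure D3:**
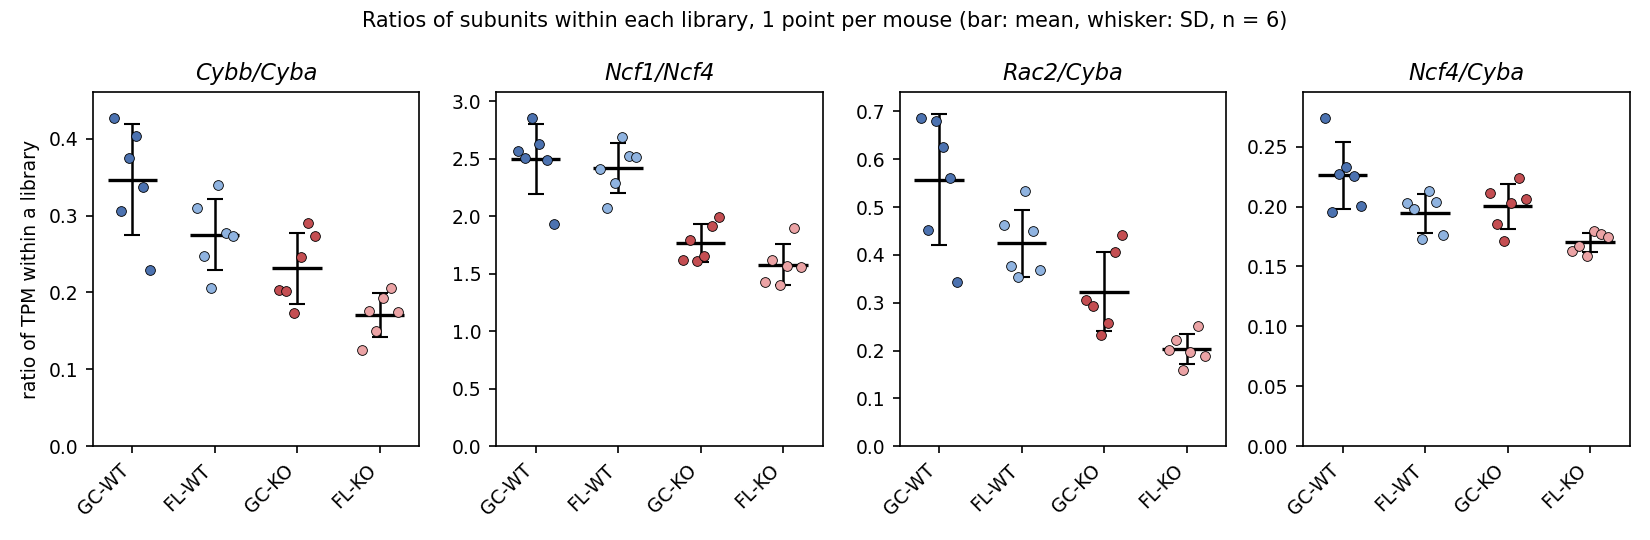
Ratio of the TPM of 2 subunits within a library (vertical axis, no unit) in every mouse, by group, with the mean as a bar and the SD as a whisker (n = 6). For Cybb to Cyba, Ncf1 to Ncf4 and Rac2 to Cyba the FL-KO mice lie below all FL-WT mice, and Ncf4 to Cyba overlaps between these groups. On the ground the genotypes overlap for every ratio shown.

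Over the 24 libraries, once scaled by median of ratios, Cybb, Ncf1 and Rac2 varied most alike. Cyba went its own way on that scale, and Ncf4 lay between them. After median-of-ratios scaling, the Pearson r of log2(TPM + 1) was 0.96 between Cybb and Ncf1, 0.96 between Ncf1 and Rac2, and 0.91 between Cybb and Rac2. Many other genes were as close. Of 5024 genes ranked by r with Rac2, Ncf1 was number 213 and Cybb number 502. By r with Cybb, Ncf1 was number 5 and Rac2 number 107. Rac1 had 0.93 with Cybb, 0.95 with Ncf1 and 0.94 with Rac2. Ncf4 had its highest r with Cyba, at 0.81, but also 0.62 with Ncf1, 0.57 with Cybb and 0.46 with Rac2. Cyba had 0.20 with Ncf1, 0.13 with Cybb and -0.00 with Rac2. With the group means taken out, r was 0.86 for Cybb with Ncf1, 0.93 for Ncf1 with Rac2 and 0.74 for Cybb with Rac2. It was 0.71 for Cyba with Ncf4, 0.61 for Ncf1 with Ncf4 and -0.05 for Cybb with Cyba. With TPM as deposited, where the whole scale of a library is shared by its genes, Cybb and Cyba had r = 0.73. Ncf4 then had 0.95 with Ncf1, 0.94 with Cybb, 0.91 with Rac2 and 0.86 with Cyba. The libraries share groups, scale and cell makeup, and these r values are a description.

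**Figure D4:**
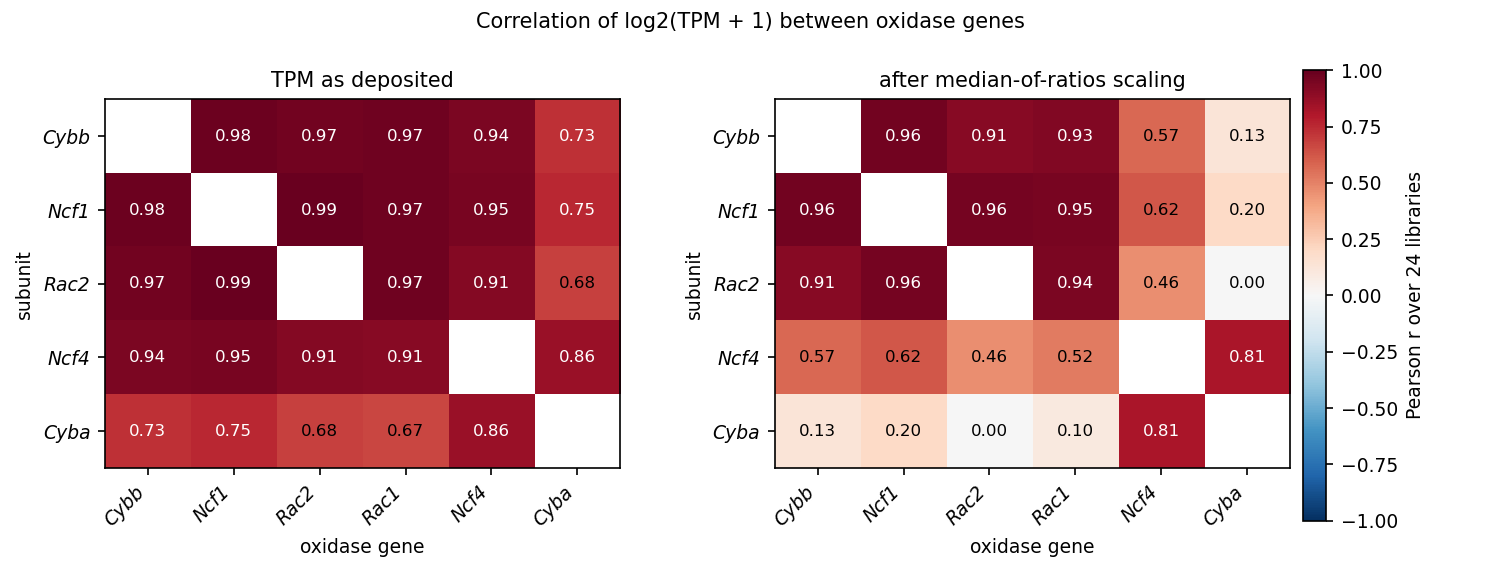
Pearson r of log2(TPM + 1) over 24 libraries between each subunit (rows) and the oxidase genes (columns), with TPM as deposited (left) and after median-of-ratios scaling (right). On the right, Cybb, Ncf1 and Rac2 form a block of 0.91 to 0.96 to which Rac1 also belongs (0.93 to 0.95), and Cyba is near 0 with Cybb and Rac2.

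The genes most like each subunit were sought among 5024 other genes that averaged 5 TPM or more, over the same scaled libraries. For Cybb they were Pik3cg, a PI3-kinase catalytic subunit of leukocytes (r = 0.967), Arhgef6, an exchange factor for Rac (0.963), and Samhd1, a dNTP hydrolase (0.963). For Ncf1 they were Mocos, a molybdenum cofactor sulfurase (0.987), Parvg, a parvin of blood cells (0.981), and Mapk3, the kinase ERK1 (0.979). Rac2 was closest to Naa60, an acetyltransferase (0.992), C5ar1, the receptor for complement C5a (0.991), and 6430548M08Rik (0.990). Cyba was closest to Clic1, a chloride channel protein (0.966), Arpc4, of the Arp2/3 complex (0.962), and the glycolytic Pgk1 (0.962). Ncf4 was closest to Anxa2, an annexin (0.965), Capg, an actin capping protein (0.927), and Bin3 (0.923).

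Among other NOX family genes, Nox1, Nox3, Nox4, Noxo1, Noxa1, Duox1, Duox2, Duoxa1, Duoxa2 and Rac3 had at most 0.37 TPM in any library, so Cybb alone of the NOX catalytic subunits looked up had more than 1 TPM. Rac1, which can stand in for Rac2 at NOX enzymes, had 38.0 ± 4.79 TPM in GC-WT mice, 33.1 ± 9.83 TPM in FL-WT mice, 23.9 ± 6.48 TPM in GC-KO mice and 17.9 ± 2.44 TPM in FL-KO mice (SD, n = 6). Its log2 fold change was -0.81 ± 0.17 in FL-KO vs. FL-WT (limma, adjusted p = 0.000334) and -0.68 ± 0.17 in GC-KO vs. GC-WT (limma, adjusted p = 0.00273), under the fold of 2. Cybc1, the chaperone of the gp91phox dimer, had -0.61 ± 0.14 in flight (limma, adjusted p = 0.000901) and -0.47 ± 0.14 on the ground (limma, adjusted p = 0.00943).

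Genes that act before and after the oxidase were followed in 5 further lists. In mice that flew, called genes in KO against WT, all lower, were 5 of 12 tested in assembly and the Rac cycle, 7 of 17 kinases that act on the cytosolic subunits, 6 of 17 receptors that trigger the burst, 7 of 11 transcription factors of oxidase genes and 2 of 10 users and scavengers of superoxide and peroxide, against 8.36% of all tested genes. On the ground the counts were 2, 4, 4, 2 and 2, against 3.04%. Flight against ground gave 1, 0, 0, 0 and 1 in Nrf2-KO mice, against 2.13%, and 0 for each list in WT mice, against 0.938%. After median-of-ratios scaling the counts in FL-KO vs. FL-WT were 2, 1, 5, 2 and 1, against 3.43% of genes, and on the ground 0, 0, 2, 0 and 1, against 0.566%. With trends in GC content and length removed they were 0, 0, 4, 0 and 1 in flight, against 1.12% of genes. On the ground they were then 0, 0, 1, 0 and 1, against 42 of 12370 genes. The genes named from these lists below are given with TPM as deposited. The median log2 fold changes in FL-KO vs. FL-WT were -0.64, -0.85, -0.71, -1.03 and -0.25, beside -0.25 for all tested genes, so that users and scavengers lay at the level of all genes. In GC-KO vs. GC-WT the medians were -0.64, -0.69, -0.49, -0.67 and -0.18 beside -0.22. Single libraries moved the smaller counts. On the ground, assembly and the Rac cycle had 1 called gene without GC-KO mouse 01 or 04 and 4 without GC-KO mouse 11 or 12 or GC-WT mouse 10, kinases had 2 without GC-KO mouse 01 and 1 without GC-KO mouse 04, and users and scavengers had 1 without GC-WT mouse 06, 07 or 08 or GC-KO mouse 04 or 09. In flight, kinases had 4 without FL-WT mouse 07, and in FL-KO vs. GC-KO the transcription factors had 1 without GC-KO mouse 04.

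Prex1, an exchange factor that loads Rac2 with GTP, had 16.8 ± 3.27 TPM in GC-WT mice, 12.3 ± 5.86 TPM in FL-WT mice, 6.78 ± 3.06 TPM in GC-KO mice and 2.70 ± 0.726 TPM in FL-KO mice (SD, n = 6). It was called in KO against WT in flight (-1.76) and on the ground (-1.27) and, as the only gene of its list, in FL-KO vs. GC-KO (-1.003), where the call was lost without GC-KO mouse 11 or 12 or FL-KO mouse 01, 02, 04 or 09. Arhgdia, which holds Rac proteins in the cytosol, had -1.68 in flight and -1.08 on the ground. Thus genes that activate and genes that restrain Rac were both among those that were lower.

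Of the kinases, Pik3cd, a PI3-kinase of leukocytes, had a log2 fold change of -1.76 in flight and -1.25 on the ground. Prkcd, the protein kinase C delta that phosphorylates p47phox, had -1.37 and -1.04, and Syk, the kinase below Fc receptors and integrins, -1.22 and -1.06. Of the receptors, C5ar1 had 4.81 ± 1.11 TPM in FL-KO mice and, in FL-WT mice, 26.4 ± 11.7 TPM (SD, n = 6), with -2.15 in flight and -1.47 on the ground. Itgb2, the beta chain of the leukocyte integrins, had -1.81 and -1.37. All of these were called in both genotype comparisons with TPM as deposited. No kinase of the list was called on the ground after median-of-ratios scaling, or in either comparison with GC content and length trends removed.

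Among the transcription factors, Rela, a subunit of NF-kappaB, had -1.73 in flight and -1.15 on the ground and Stat3 had -1.41 and -1.10, each called in both with TPM as deposited. No listed factor was called on the ground after median-of-ratios scaling, or in either comparison with GC content and length trends removed. Spi1, which encodes the PU.1 that drives myeloid differentiation and Cybb, was called in flight only (-1.30, against -0.88 on the ground), as were Irf8 (-1.03 against -0.81) and Cebpe (-1.01 against -0.62), and the difference between flight and ground was not past the threshold for any of the 3 (interaction, limma adjusted p = 1). These 3 were picked from the list for their known roles at oxidase genes after their values were seen.

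Downstream, Mpo, the myeloperoxidase that turns hydrogen peroxide from the burst into hypochlorous acid, had larger log2 fold changes than any subunit. It stood at 259 ± 79.6 TPM in GC-WT mice, 201 ± 91.6 TPM in FL-WT mice, 85.2 ± 53.7 TPM in GC-KO mice and 35.5 ± 8.63 TPM in FL-KO mice (SD, n = 6), a log2 fold change of -2.39 in flight and -1.72 on the ground. In FL-KO vs. GC-KO it was called too (-1.06), but not without GC-KO mouse 11 or 12 or FL-KO mouse 01. Cat, the catalase that removes hydrogen peroxide, was called on the ground (-1.06) and had -0.71 in flight. Epx, the peroxidase of eosinophils, was called in flight (-1.22) and had -0.37 on the ground. Mpo and Epx are also among the promyelocyte and eosinophil markers given next.

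**Figure D5:**
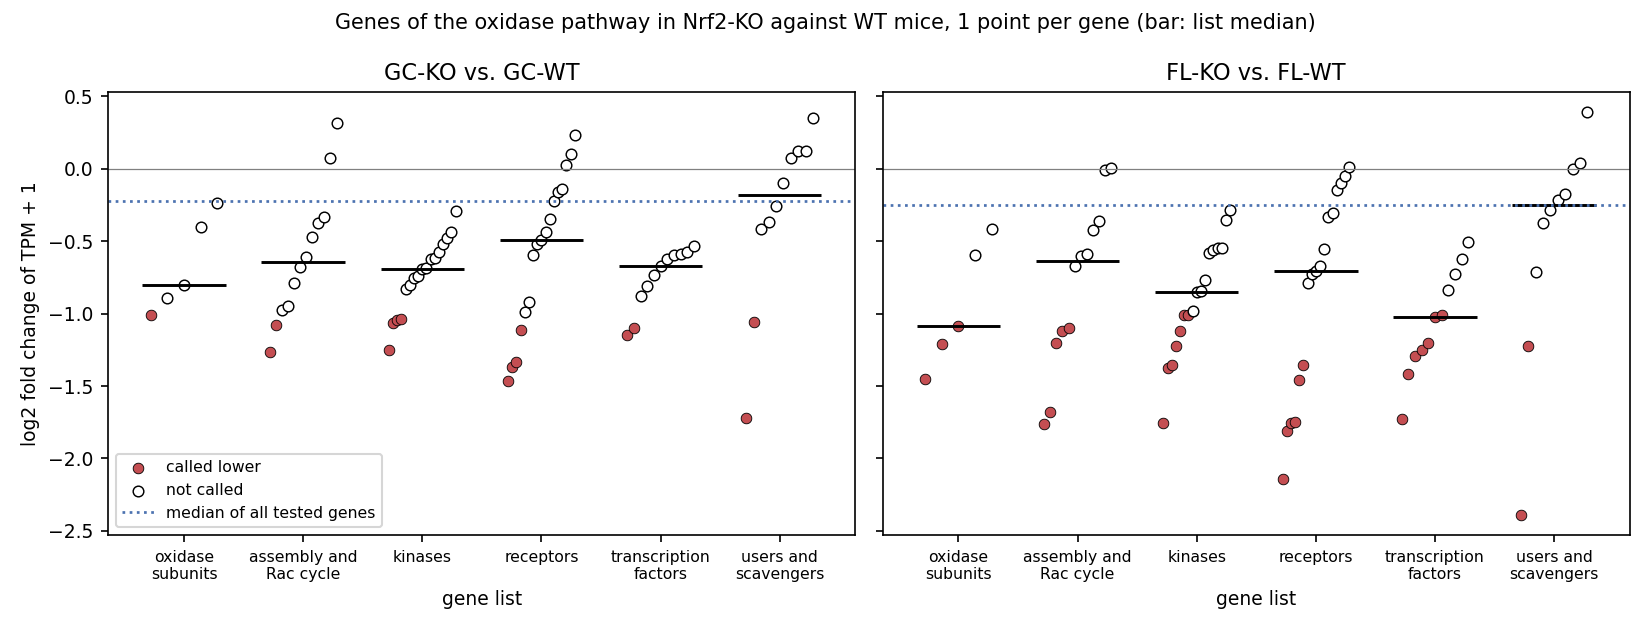
Log2 fold changes (vertical axis, log2 of TPM + 1) of the subunits and of the genes of 5 lists in the genotype comparisons on the ground (left) and in flight (right), 1 point per gene, with called genes filled and the list median as a bar. In flight the medians of the subunits (-1.09) and the transcription factors (-1.03) are lowest, and users and scavengers (-0.25) lie on the dotted median of all genes.

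Markers of the cell types in the marrow were read beside these values. The summed TPM of 12 neutrophil markers, which maturing and mature neutrophils hold in great amounts, was 31438 to 57093 in GC-WT mice, 45723 to 64585 in FL-WT mice, 42673 to 65418 in GC-KO mice and 50714 to 68045 in FL-KO mice. On the ground its mean was 50789 with Nrf2 deleted against 42255 in WT mice. In flight FL-KO mice had a mean of 56775 and a median of 52515, against 58273 and 62329 for FL-WT mice, and the genotypes overlapped in both settings. Within that list, however, 4 of 12 were called lower in FL-KO vs. FL-WT, against 8.36% of tested genes, and 3 in GC-KO vs. GC-WT, against 3.04%. The log2 fold change was negative for 8 of the 12 in each, against 79.1% and 77.1% of all tested genes, so that count says little. The medians were -0.65 and -0.49, beside -0.25 and -0.22 over all tested genes. Most of the sum comes from S100a8 (11541 to 28336 TPM over the libraries) and S100a9 (11072 to 31007 TPM). Promyelocyte markers (5 genes) summed to 650 to 1021 TPM in GC-WT mice and 409 to 845 TPM in GC-KO mice, and to 556 to 1251 TPM in FL-WT mice and 369 to 523 TPM in FL-KO mice, where the groups did not overlap. Monocyte and macrophage markers (9 genes) summed to 469 to 631 TPM and 318 to 527 TPM on the ground, and to 402 to 757 TPM and 285 to 407 TPM in flight. In FL-KO vs. FL-WT 2 promyelocyte and 3 monocyte and macrophage markers were called lower, against the same 8.36% of genes, and in GC-KO vs. GC-WT 1 and 2, against 3.04%. Ly6c2 made up most of the monocyte sum (215 to 500 TPM over the libraries), with no other marker of that list above 64.9 TPM. Mpo, in the promyelocyte sum, ranged from 25.4 to 360 TPM. Thus the mean promyelocyte and monocyte sums were lower in Nrf2-KO mice both on the ground and in flight, as were Cybb, Ncf1 and Rac2. The B lineage, T and NK and megakaryocyte means given next were lower in both settings too, and the erythroid mean was higher in both. The part of cell makeup in the subunit values was not tested.

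Markers of other cell types differed between groups as well. B lineage markers (9 genes) averaged 229, 150, 159 and 103 TPM in the order GC-WT, FL-WT, GC-KO, FL-KO, T and NK markers (9 genes) 58.2, 58.0, 45.8 and 44.0 TPM, and megakaryocyte markers (5 genes) 165, 99.6, 141 and 73.9 TPM. Eosinophil, basophil and mast cell markers (7 genes), of which eosinophils carry an oxidase of the same subunits, averaged 966, 1393, 991 and 809 TPM. Erythroid markers (9 genes) averaged 165700, 174510, 206210 and 194480 TPM. In the same order of lists, B lineage, T and NK, megakaryocyte, eosinophil and erythroid, 1, 1, 0, 3 and 2 markers were called lower in FL-KO vs. FL-WT, against 8.36% of genes, and 1, 0, 0, 1 and 0 in GC-KO vs. GC-WT, against 3.04%, with none higher. Counts of 0 or 1 of such short lists lie near these shares. No marker was at 0 in any library.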

How the data were processed

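RNA-seq of bone marrow cells was analysed in 24 mice. The sample labels gave 4 groups by flight (FL) or ground control (GC) and genotype, with 6 mice in each. Per the study's methods and the submitters' processing notes, the authors mapped reads of a strand-specific library to mm10 (GRCm38) with STAR 2.6.1 and estimated the deposited TPM values with RSEM 1.3.1. The annotation used for RSEM is not given in the sources used here. Columns summed to 999999.5 to 1000001.1, so the values are relative within a library, and depth is unknown.

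Gene IDs were named with GENCODE vM21, which matched 54723 of 54752 IDs. Genes with a TPM above 1 in at least 1 library were tested on the log2(TPM + 1) scale. The fit used limma 3.58.1 (R 4.3.3) and took a mean for each group over all 24 libraries. Genes were called at a Benjamini-Hochberg adjusted p under 0.1 over all tested genes and a fold change of at least 2. TPM of single subunits was compared by rank sum in 20 exact permutation tests, two-sided, whose p-values are unadjusted. These tests ask whether values rank higher in 1 group than in the other, with mice as the units.

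Alternatives were a pseudocount of 0.1, no filter and a filter of 6 libraries, median-of-ratios scaling, quantile normalization, TPM without 5 small RNAs (Rmrp, Rpph1, Rn7sk, Rn7s1 and Rn7s2), removal of GC content and length trends, limma with a trend, an adjusted p under 0.05, fits of only the groups compared, no fold threshold, a replicate block and leaving out each library. The fit was tested on simulated data. The members and lists were chosen with earlier results of these data known. Named genes were the subunits, Nfe2l2, the Nox and Duox genes, the 2 called genes of largest fold in each pathway list and comparison, and the 3 genes most like each subunit, while Cybc1, Rac1, Spi1, Irf8 and Cebpe were added. One gene that the rule names is not reported here. Promoters were those of RefSeq. Within groups, n = 6 limits precision.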

Additional observations from a re-analysis of the deposited data

Results flagged for a closer look

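Of 52 sets of 6 mice examined for a value far from the rest, 2 were set apart, both from FL-KO mouse 02. Its Cyba level of 153.47 TPM lay below the other 5 FL-KO mice, with a gap to the nearest of 0.66 of the range of the group. Its Ncf4 level of 25.67 TPM did the same, with a gap of 0.79 of the range. The same mouse was lowest of its group for Ncf1 and Rac2 too, at 41.6 and 34.2 TPM, and had the lowest promyelocyte sum (369 TPM) and monocyte sum (285 TPM) of the FL-KO mice. Chance sets apart about 1 in 20 such sets, and the sets share mice.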

How the results depend on the processing

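The number of called subunits for KO against WT was 1 on the ground and 3 in flight, and it was 0 for flight against ground in both genotypes and for the interaction. Under median-of-ratios scaling and under quantile normalization it was 0 on the ground (GC-KO vs. GC-WT) and 1 in flight (FL-KO vs. FL-WT), and without the trends in GC content and length it was 0 for both. Without the 5 small RNAs it was 2 in GC-KO vs. GC-WT, where the count over all genes rose from 376 to 902. With no minimum fold it was 4 and 5 for KO against WT on the ground and in flight and 1 in FL-KO vs. GC-KO, since fewer conditions were asked. With 1 library left out it ranged from 0 to 2 in GC-KO vs. GC-WT, from 2 to 3 for KO against WT in flight, and stayed 0 to 0 in the other comparisons. The other alternatives, among them a pseudocount of 0.1, both filters and limma with a trend, left all counts of called subunits as they were.

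Directions turned mainly in the comparisons of flight. In FL-WT vs. GC-WT the log2 fold changes of Cybb, Ncf1, Ncf4 and Rac2 became 0.27, 0.34, 0.38 and 0.23 after median-of-ratios scaling. They became 0.18, 0.24, 0.17 and 0.13 once trends in GC content and length were removed, and with quantile normalization Cybb, Ncf1 and Ncf4 became 0.028, 0.048 and 0.19. In FL-KO vs. GC-KO the values of Cybb, Ncf1 and Ncf4 became 0.048, 0.088 and 0.25 with median-of-ratios scaling, Ncf4 0.13 with quantile normalization, and Ncf1 and Ncf4 0.074 and 0.14 with the trends removed. In GC-KO vs. GC-WT Cyba became 0.10 with median-of-ratios scaling. In the interaction Cyba became 0.00988 with quantile normalization, and Cyba and Ncf4 0.028 and 0.00866 without the 5 small RNAs. Scaling removes the shift of all genes by construction, and beyond that the cause was not tested. With 1 library left out, FL-WT vs. GC-WT ranged from -0.25 to 0.019 for Cybb, -0.18 to 0.087 for Ncf1 and -0.10 to 0.085 for Ncf4, and FL-KO vs. GC-KO from -0.024 to 0.11 for Cyba.

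Mouse numbers are shared by ground and flight mice of a genotype. Over 5025 genes, the deviations of same-numbered mice from their group means correlated at -0.05 to 0.40 in WT mice. In Nrf2-KO mice they correlated at -0.03 to 0.35. Of 12 mice, 3 correlated best with their own number. That does not show that the numbers pair the mice, and so small a check cannot exclude it. With the replicate block 0 subunits were called in both flight comparisons and in the interaction, as without it. At any fold, Cybb and Ncf1 passed an adjusted p of 0.1 in FL-KO vs. GC-KO with the block (limma, adjusted p = 0.0341 and 0.0473) beside Rac2. Over all genes 118 were called lower for flight against ground in WT mice (116 without it) and 265 in Nrf2-KO mice (264 without it). WT and Nrf2-KO mice share no numbers, so no paired analysis was possible for the genotype comparisons. Without read counts, the depth behind a value cannot limit it in a way that can be stated.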
